A study of Mus musculus with 23 samples.

Results

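The 10 genes described here carry out or control the making of fatty acids and triglycerides: Acly, Me1, Acaca, Fasn, Elovl6, Scd1, Scd2, Dgat2, Srebf1 and Thrsp. They were taken by name as genes of this pathway, through the RefSeq accession of each probe, and are 10 of 15473 genes with a symbol that were tested. All 10 were well above background on all 23 arrays, and none was saturated. They were measured on 1-colour Agilent arrays in gastrocnemius, a calf muscle of mainly fast fibres, from C57BL/6J mice, all male. Adult mice entered at 5 months and old mice at 24 months. At each age, sedentary controls stood on a stopped treadmill, a group was given high-intensity intermittent training (HIIT: 2 min at 27 m/min, repeated 3 times, the pauses being 1 min of walking at 5 m/min), and another moderate-intensity continuous training (MICT: an unbroken 45 min at 13 m/min). Training was daily for 4 weeks, and muscle was taken after 12 h of rest. Each group had 4 arrays, except adult MICT with 3 (replicates 1, 3 and 4).

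Fatty acid synthesis starts from citrate that leaves the mitochondria. ATP citrate lyase (Acly) splits it into acetyl-CoA, acetyl-CoA carboxylase 1 (Acaca) makes malonyl-CoA, and fatty acid synthase (Fasn) joins these units into palmitate with reducing power that malic enzyme 1 (Me1) helps to supply. Elovl6 lengthens palmitate to stearate, the desaturases Scd1 and Scd2 add a double bond, and Dgat2 completes triglycerides. The transcription factor encoded by Srebf1 switches many of these genes on, and Thrsp (Spot 14) is a small protein that rises with lipid synthesis and is abundant in fat and liver. In mammals the pathway is most active in liver and in fat cells, also in skin glands and in the Schwann cells that make myelin, whereas a muscle fibre mainly burns fatty acids. A muscle sample can hold fat, nerve, lymphoid tissue and skin cells, so each array was also given a score for each of these cell types.

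A score is the mean, over the listed marker genes, of the log2 deviation from the mean of all arrays. All 8 fast fibre markers, which include Acta1, Ckm and Myh4, were above background on 23 arrays, which matches the labelled tissue. The 6 adipocyte markers (Adipoq, Plin1, Cidec, Lep, Retn and Cfd) were also above background on 23 arrays, except Lep on 19. In adult mice the adipocyte score ran from -2.04 to -1.21 for controls, from -1.26 to 1.69 after HIIT and from -1.36 to 1.07 after MICT. In old mice it ran from -0.999 to 2.62 for controls, from -1.60 to 1.30 after HIIT and from -0.95 to 1.48 after MICT. Of the 6 keratinocyte markers, Krt14, Krt10 and Krtdap were above background on 23 arrays, Krt5 on 22, Lor on 16 and Krt1 on 10. That score reached 6.55 in old control 2, 5.99 and 4.45 in old HIIT 4 and 3, and 5.18 in adult HIIT 3, and no adult control exceeded -1.87. The lymphocyte score was highest in old controls 1 and 2 (4.43 and 3.58) and in old HIIT 2 (2.94). Old controls 1 and 2 thus stand apart, and results that rest on them are given with and without them. In whole muscle, fewer cells of a type and less RNA per cell cannot be told apart.

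The promoters of Fasn and Thrsp are shown because these genes had the most similar profiles of any pair among the 10, with a Pearson r of 0.91 over the 23 arrays. Acly and Elovl6 are shown beside them as genes that, like Fasn, were called lower after MICT in old mice. Each stretch is the 110 bases before the start site, 5′ to 3′ on the gene's strand, from RefSeq's GRCm38.p6 windows, and capitals mark CCAAT on either strand. CCAAT boxes are known as binding sites of NF-Y, a factor that works with Srebf1's protein at lipid synthesis genes. The stretches lie on the minus strand at chr11:120824548-120824657 for Fasn, chr7:97417551-97417660 for Thrsp and chr11:100528001-100528110 for Acly, and on the plus strand at chr3:129532276-129532385 for Elovl6.
Fasn: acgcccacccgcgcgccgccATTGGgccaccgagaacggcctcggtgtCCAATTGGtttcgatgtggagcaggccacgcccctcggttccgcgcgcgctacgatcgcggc
Thrsp: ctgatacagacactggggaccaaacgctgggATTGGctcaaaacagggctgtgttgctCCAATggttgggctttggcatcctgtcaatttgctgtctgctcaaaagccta
Acly: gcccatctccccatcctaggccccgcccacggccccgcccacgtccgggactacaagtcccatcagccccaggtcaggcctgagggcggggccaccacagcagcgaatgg
Elovl6: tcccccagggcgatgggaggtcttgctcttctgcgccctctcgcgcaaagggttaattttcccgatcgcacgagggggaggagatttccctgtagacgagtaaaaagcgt

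Of the 10 genes, 7 had a promoter window of 250 bases before and 50 after the start site, and Scd1, Scd2 and Dgat2 had none. The Fasn window held 3 matches to CCAAT, at -90, -62 and -59 from the start site on the minus, plus and minus strand, the latter 2 overlapping in CCAATTGG. Thrsp held 2, at -79 and -52. Among all 32851 windows, 37.4% held at least 1 match on either strand and 11.7% held 2 or more. Acly had 1 match, at 38 bases after the start site, and Srebf1 and Me1 had matches in some of their alternative windows, while the Acaca and Elovl6 windows had none. The E-box CACGTG (7.15% of windows), the sterol regulatory element core TCACNCCAC (1.24%), the TATA box TATAAA (13.6%) and the direct repeat of AGGTCA with a base between (0.0396%) were not found in the windows of the 7 genes. A match describes letters only, and its absence says nothing about a factor.

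**Figure D1:**
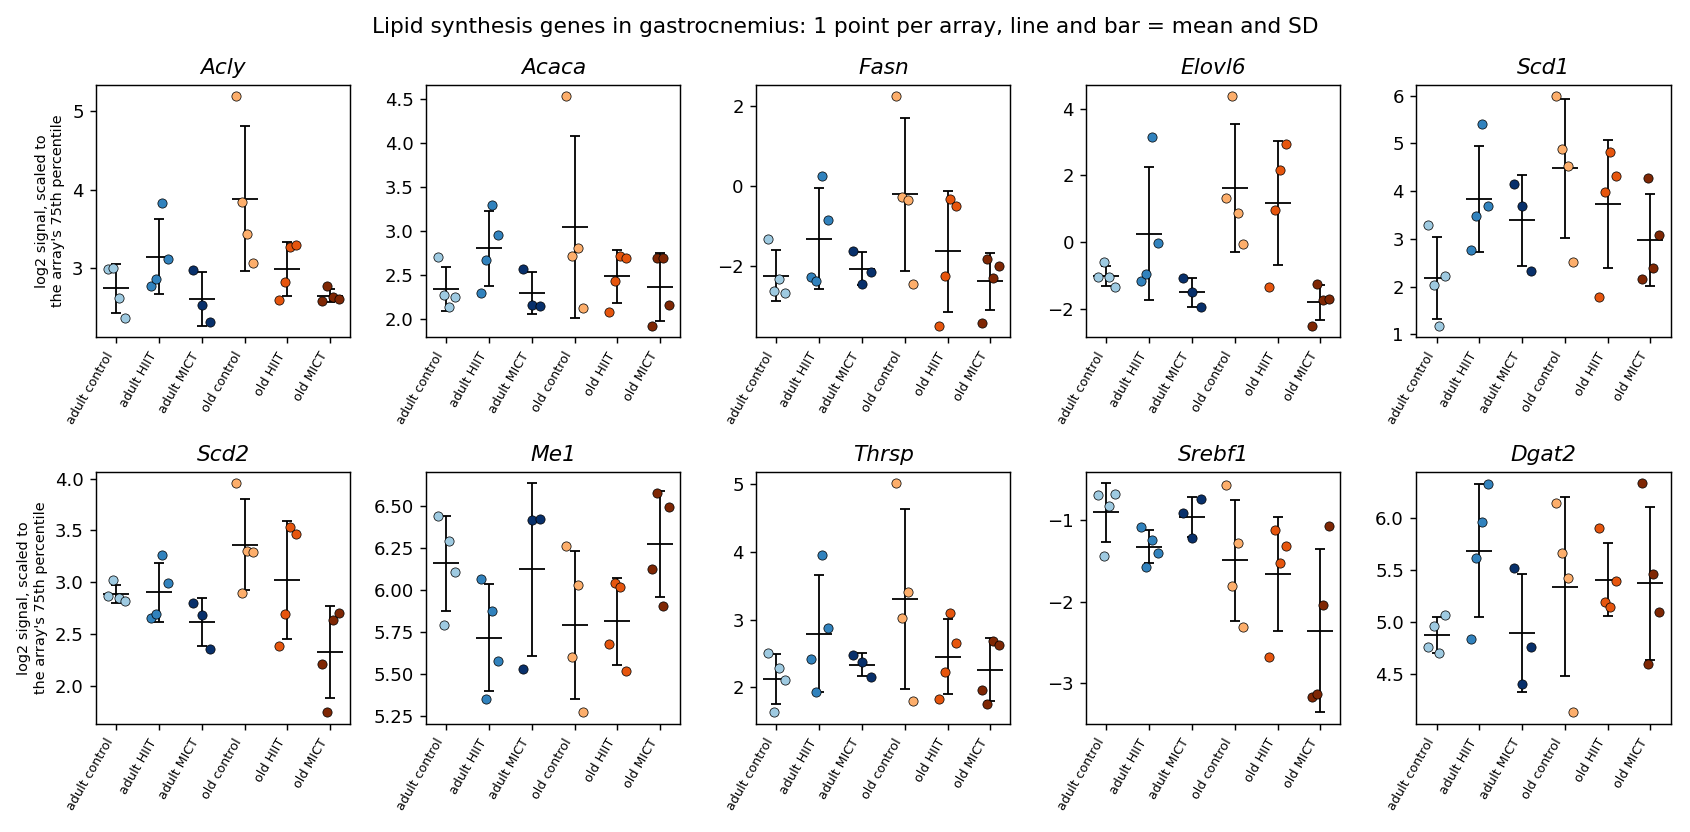
Scaled log2 signal of the 10 genes, with 1 point per array in each of the 6 groups, a horizontal line at the group mean and a bar of 1 SD. Old control 1 is the highest array for 7 genes, among them Fasn at 2.25 and Acly at 5.19, and Elovl6 spans 6.86 log2 units.

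All values are log2 signals relative to the array's 75th percentile, so a value is a level on that scale and 1 unit is a doubling. Levels of different genes come from different probes and are not compared. The spread between arrays of the same group differed among the 10 genes. Elovl6 had a pooled within-group SD of 1.43, Fasn 1.24 and Scd1 1.14, against a median of 0.32 over all features. Me1 and Scd2 varied least, with SDs of 0.35 and 0.39. Old control 1 was the highest array for Acly, Acaca, Fasn, Scd1, Scd2, Thrsp and Srebf1.

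Acly, the enzyme that releases acetyl-CoA from citrate, was at 2.98, 2.999, 2.62 and 2.36 in adult controls 1 to 4 and at 5.19, 3.84, 3.44 and 3.06 in old controls 1 to 4. Every old control was above every adult control. After HIIT, Acly was at 2.78, 2.86, 3.84 and 3.11 in adult and at 2.59, 2.82, 3.26 and 3.29 in old mice. After MICT it was at 2.98, 2.52 and 2.31 in adult and at 2.58, 2.76, 2.63 and 2.60 in old mice. Every old MICT array was below every old control, and the old MICT arrays lay within the range of adult controls. Acaca, which commits acetyl-CoA to synthesis, averaged 2.34 ± 0.25 in adult controls and 3.04 ± 1.04 in old controls (SD, n = 4 each). The old control mean of Acaca rested on old control 1 at 4.53, with the other 3 between 2.12 and 2.80.

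Fasn, the enzyme that builds palmitate, was at -1.32, -2.65, -2.34 and -2.69 in adult controls and at 2.25, -0.27, -0.36 and -2.46 in old controls. Old control 4 fell inside the adult range, and the other 3 old controls were above it. In old HIIT, Fasn was at -3.50, -2.25, -0.32 and -0.50, and in old MICT at -3.45, -1.84, -2.30 and -2.00. In adult HIIT it was at -2.29, -2.39, 0.25 and -0.85, and in adult MICT at -1.62, -2.45 and -2.15. Adult HIIT 3, the array with the highest adipocyte score among adult mice, was also the highest adult array for Fasn, Acaca, Acly, Scd1, Scd2, Elovl6 and Thrsp.

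Elovl6, the elongase, was at -1.04, -0.60, -1.04 and -1.34 in adult controls and at 1.32, 4.36, 0.86 and -0.06 in old controls, with no overlap. In old HIIT it was at -1.33, 0.96, 2.15 and 2.94, and in old MICT at -2.49, -1.24, -1.74 and -1.70. The old MICT arrays were below all old controls, while old HIIT overlapped the old controls. In adult HIIT, replicate 3 reached 3.15 and the other 3 arrays lay between -1.15 and -0.01, and adult MICT lay between -1.93 and -1.07.

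Scd1, the main desaturase of fat and skin, was at 3.29, 2.04, 1.18 and 2.22 in adult controls and at 5.98, 4.89, 4.53 and 2.51 in old controls, where replicate 4 lay inside the adult range. After HIIT, Scd1 was at 2.78, 3.47, 5.41 and 3.68 in adult and at 1.78, 3.97, 4.81 and 4.32 in old mice. After MICT it was at 4.14, 3.69 and 2.33 in adult and at 2.15, 4.28, 2.40 and 3.07 in old mice. Trained groups spread over much of the range of the controls. Scd2, a desaturase also known from nerve, varied far less: 2.86, 3.02, 2.84 and 2.82 in adult controls and 3.96, 2.89, 3.30 and 3.29 in old controls. Its lowest arrays were old MICT 2 and 1, at 1.74 and 2.21, and old MICT 3 and 4 were at 2.63 and 2.71. All 4 were below all old controls, and old HIIT, at 2.38, 2.69, 3.53 and 3.47, overlapped both. In adult mice Scd2 was at 2.65, 2.70, 3.27 and 2.99 after HIIT and at 2.80, 2.68 and 2.36 after MICT. Every adult MICT array was thus also below every adult control. Separation of groups was not counted over all features.

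Me1, the malic enzyme, ranged from 5.27 in old control 4 to 6.58 in old MICT 2, only 2.47-fold. Its group means lay between 5.72 ± 0.32 in adult HIIT and 6.28 ± 0.32 in old MICT (SD, n = 4 each). Thrsp followed Fasn, from 1.63 in adult control 2 to 5.01 in old control 1. Dgat2, the last enzyme of triglyceride synthesis, ran from 4.13 in old control 4 to 6.33 in old MICT 1. Old control 1, the highest array of Fasn and Scd1, was the highest old control for Dgat2 (6.14) and Me1 (6.26). It was the highest of all arrays for neither.

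Srebf1, the regulator, was at -0.69, -1.44, -0.82 and -0.68 in adult and at -0.58, -1.81, -1.29 and -2.31 in old controls. In old mice it was at -2.68, -1.12, -1.53 and -1.32 after HIIT and at -3.17, -3.14, -2.05 and -1.08 after MICT. The 3 lowest arrays were old MICT 1, old MICT 2 and old HIIT 1, and the adult arrays spanned only -1.57 to -0.68. In old MICT 2, Acaca was at 2.68, above its median of 2.57, and Fasn (-1.84), Scd1 (4.28) and Me1 (6.58) were also above theirs. Acly (2.76), Elovl6 (-1.24), Scd2 (1.74), Thrsp (1.76) and Dgat2 (4.60) were below their medians on that array. A link between the Srebf1 level and the other genes was not tested.

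Whether each gene followed fat tissue was tested as the slope of its log2 level on the adipocyte score, in a model that also held the 6 group means, so that differences between groups do not enter. No member is among the 6 markers of the score. Of the 10 genes, 5 had a positive slope with an adjusted p under 0.05 and none a negative one, where 1.77% of all features were called, 1.56% positive and 0.211% negative. Scd1 rose by 0.88 ± 0.07 (SE) log2 units per unit of score (limma adjusted p = 2.19e-07), Fasn by 0.79 ± 0.14 (0.00387) and Elovl6 by 0.85 ± 0.18 (0.0157). Acly and Acaca rose less steeply, by 0.29 ± 0.07 (0.0230) and 0.30 ± 0.07 (0.0360). A slope near 1 means that the gene changed as much as the fat markers themselves. Thrsp, at 0.40 ± 0.11, missed the threshold (0.0536), and passed it when 8 further adipocyte markers were added to the score (0.53 ± 0.13, 0.0384).

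The remaining genes had no called slope: Srebf1 at 0.20 ± 0.11 (adjusted p = 0.378), Scd2 at 0.12 ± 0.07 (0.406), Me1 at 0.10 ± 0.06 (0.445) and Dgat2 at 0.09 ± 0.11 (0.751). For these, a slope as steep as that of Scd1 lies many standard errors away, but shallower ones are not shown to be absent. The Scd1 slope also remained called without old controls 1 and 2 (0.88 ± 0.09, adjusted p = 7.29e-06) and with the lymphocyte or Schwann score as a second covariate (0.91 ± 0.09 and 0.88 ± 0.09). With either of these, the other 4 were no longer called: Fasn had 0.77 ± 0.18 (0.0605) beside the lymphocyte score and 0.71 ± 0.17 (0.0518) beside the Schwann score. The number of called slopes was 2 (Fasn and Scd1) without old control 4 or without adult HIIT 3, and 3 (Fasn, Acly and Scd1) without old HIIT 1.

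**Figure D2:**
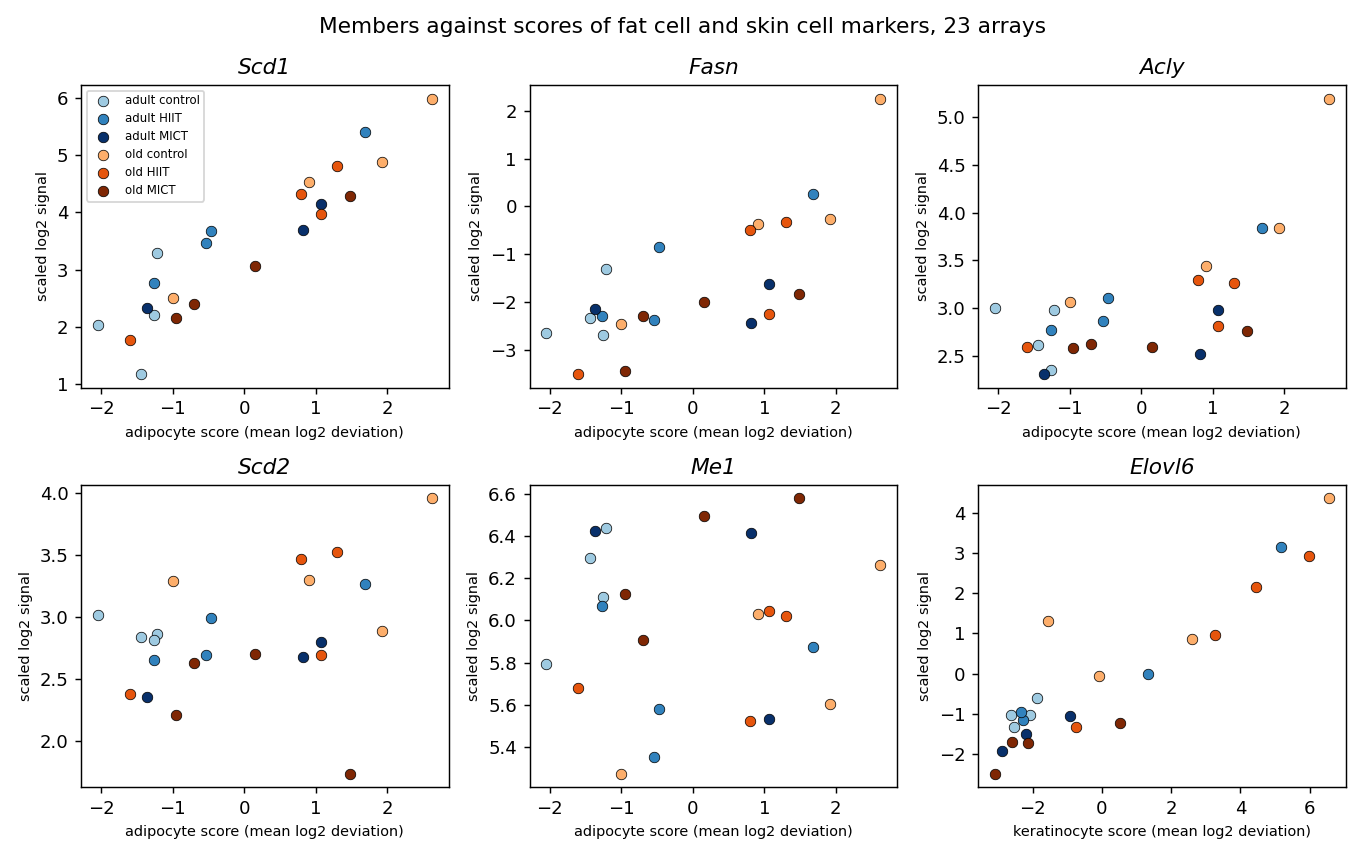
Scaled log2 signal of Scd1, Fasn, Acly, Scd2 and Me1 against the adipocyte score, and of Elovl6 against the keratinocyte score, for the 23 arrays coloured by group. Scd1 climbs along the whole score (r = 0.93), and Elovl6 climbs with the keratinocyte score (r = 0.92). Me1 shows no trend over all arrays (r = 0.05), and its r within groups was 0.34.

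As a description over the 23 arrays, which share animals and libraries between genes, Pearson's r with the adipocyte score was 0.93 for Scd1, 0.75 for Fasn, 0.68 for Thrsp and Acly, and 0.66 for Acaca and Elovl6. It was 0.36 for Scd2, 0.26 for Dgat2, 0.07 for Srebf1 and 0.05 for Me1. With group means removed, r was 0.94 for Scd1, 0.38 for Srebf1, 0.37 for Scd2, 0.34 for Me1 and 0.17 for Dgat2. The genes whose profile was most like that of Scd1 were Plin1, the coat protein of fat cell lipid droplets (r = 0.95), the fat cell hormone Retn (0.94) and Aldh1a7 (0.94). Aldh1a7 was also nearest to Fasn (0.93). Acly was nearest to Tkt (0.96), transketolase of the pentose phosphate pathway, then to Fasn and Aacs (0.90 each). Acaca was nearest to Fasn (0.90), Acly (0.89) and Agpat2 (0.88), an enzyme of triglyceride assembly in fat cells. Thrsp was nearest to Fasn (0.91), then to Clstn3 (0.88) and A530016L24Rik (0.87).

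Elovl6 stood apart within the group that followed fat. Among the genes most like it were Gata3 (r = 0.96), a transcription factor of T cells and of skin, and Hs3st6 (0.95). Its r with the keratinocyte score was 0.92. The slope of every gene on that score, added after these values were seen, was called for Elovl6 (0.51 ± 0.05 per unit of score, limma adjusted p = 1.65e-06) and for no other of the 10, where 2.43% of all features were called, 2.38% positive and 0.0548% negative. Without old control 1, which had a high Elovl6 level and a keratinocyte score of -1.54, 6 genes were called: Fasn, Acaca, Acly, Scd1, Elovl6 and Thrsp. With both scores in the model, Elovl6 kept its keratinocyte slope (0.41 ± 0.06, 0.000178) and its adipocyte slope was 0.33 ± 0.12 (0.298). Scd1 showed the reverse, with an adipocyte slope of 0.88 ± 0.10 (1.51e-05) and a keratinocyte slope of -0.00213 ± 0.0455.

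**Figure D3:**
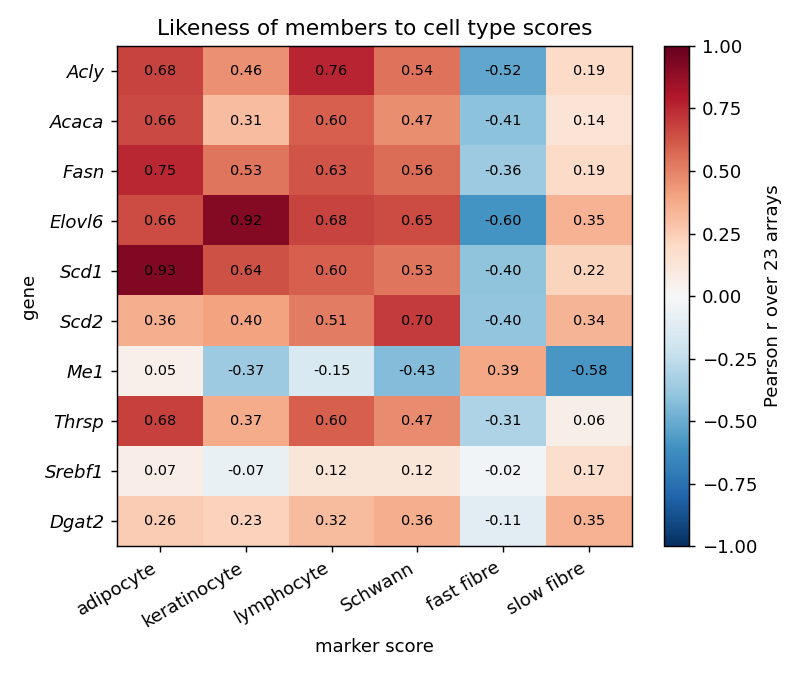
Pearson r over 23 arrays between each of the 10 genes and 6 cell type scores, from blue (-1) to red (1). The adipocyte column is highest for Scd1 (0.93), the keratinocyte column for Elovl6 (0.92) and the Schwann column for Scd2 (0.70), and Me1 alone has a positive r with the fast fibre score (0.39).

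Among the genes that did not follow fat, Scd2 had its highest r with the Schwann score (0.70), but no gene of the 10 had a called slope on it. The Scd2 slope was 0.69 ± 0.20 per unit (limma adjusted p = 0.282), where 0.169% of all features were called. An unadjusted p under 0.05 was found for 6 of the 10 slopes and for 1989 of 23715 features. The genes most like Scd2 were Slc18b1 (0.86), Serp2 (0.85) and Slc25a1 (0.84), the carrier that exports citrate for fatty acid synthesis. Me1 was the only gene of the 10 with a positive r with the fast fibre score (0.39), and had a negative r with the slow fibre score (-0.58). Its nearest genes were Synm, an intermediate filament protein of muscle (0.94), Dhdh (0.93) and Calm3 (0.92), and its 2 other probes followed the one used with r of 0.95 and 0.96. Srebf1 was nearest to Exd1 (0.91), Chadl (0.89) and 2310065F04Rik (0.89), and Dgat2 had no profile closer than that of Cables1 (0.78), Hoxb7 (0.77) and Poln (0.77).

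Old and adult controls were compared to ask what age alone changed. Acly was 2.21-fold higher in old controls (1.15 ± 0.32 log2 units, SE, n = 4 and 4, limma adjusted p = 0.0287) and Scd1 4.91-fold higher (2.29 ± 0.74, 0.0443). These 2 of the 10 genes were called higher and none lower, against 4.58% and 9.07% of all features (13.6% in either direction). The median difference was 0.92 for the 10 genes and -0.15 for all features. Elovl6 at 2.63 ± 0.92 (0.0593), Fasn at 2.04 ± 0.80 (0.0850), Thrsp at 1.18 ± 0.49 (0.0989) and Acaca at 0.70 ± 0.35 (0.162) did not pass. Srebf1 and Me1 had negative differences that did not pass, -0.59 ± 0.41 (0.326) and -0.37 ± 0.23 (0.277).

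Cell type markers moved in the same comparison. Of the 6 adipocyte markers, 3 were called higher, Adipoq by 2.51 ± 0.76, Plin1 by 2.95 ± 0.81 and Lep by 3.66 ± 1.02, and of the 7 lymphocyte markers 5 were called higher. So were 4 of the 8 wider adipocyte markers, the keratinocyte marker Lor (7.36 ± 2.24) and the Schwann markers Mbp (1.23 ± 0.23) and Egr2 (1.42 ± 0.44), while 2 of 8 fast fibre markers were called lower. With the adipocyte score as a covariate, the Scd1 difference was 0.01 ± 0.33 (adjusted p = 0.993), that of Fasn -0.03 ± 0.63 (0.991) and that of Acly 0.38 ± 0.29 (0.575). The estimates for Scd1 and Fasn were near 0 in that model. With the keratinocyte score, the Elovl6 difference was 0.52 ± 0.46 (0.559). Neither score overlapped between these groups. The adipocyte score was at most -1.21 in adult controls and at least -0.999 in old controls, and the keratinocyte score at most -1.87 and at least -1.54. Age and these scores therefore cannot be told apart in these models. Without old controls 1 and 2 no gene of the 10 was called, and Acly differed by 0.51 ± 0.27 (0.407) and Scd1 by 1.34 ± 0.85 (0.494). None was called when old control 1 or 2 or adult control 1, 3 or 4 was left out alone, 1 (Acly) without adult control 2, adult HIIT 2 or 4, or adult MICT 3, and 5 without old control 4. Adult and old controls lay on different slides, and in a model of age, training and slide Acly differed by 1.34 ± 0.58 (0.530) and Scd1 by 2.00 ± 1.31 (0.644).

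**Figure D4:**
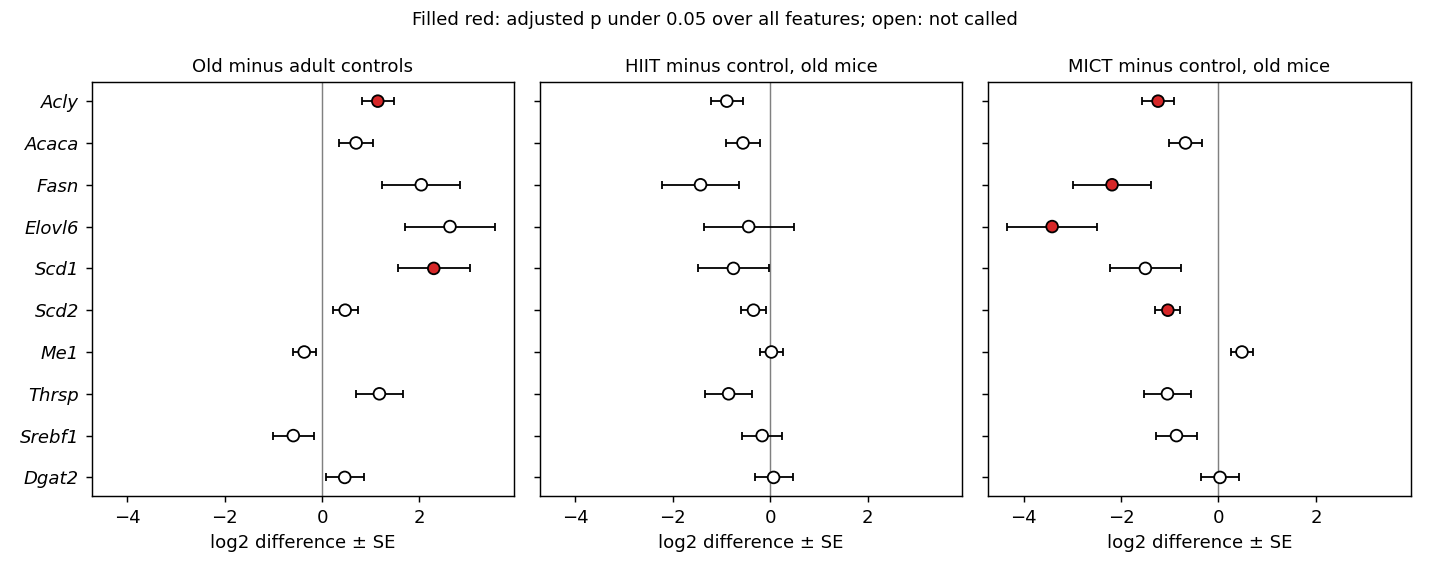
Differences in log2 units (points) with SE (bars) for the 10 genes, for old minus adult controls, HIIT minus control and MICT minus control in old mice, with filled red points at an adjusted p under 0.05. Acly and Scd1 are filled on the right of 0 for age, none is filled for HIIT, and Acly, Fasn, Elovl6 and Scd2 are filled on the left of 0 for MICT.

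In old mice, MICT went with lower levels of 4 of the 10 genes. Elovl6 fell by 3.41 ± 0.92 log2 units, 10.7-fold lower than in old controls (SE, n = 4 and 4, limma adjusted p = 0.0122). Fasn fell by 2.18 ± 0.80, 4.55-fold (0.0440), Acly by 1.24 ± 0.32, 2.36-fold (0.0109), and Scd2 by 1.04 ± 0.26, 2.06-fold (0.00844). In this comparison 30.2% of all features were called, 9.03% lower and 21.2% higher, and no gene of the 10 was called higher. The median difference was -1.04 for the 10 genes and 0.19 for all features. Thrsp at -1.05 ± 0.49 (0.102), Srebf1 at -0.86 ± 0.41 (0.114), Scd1 at -1.50 ± 0.74 (0.120) and Acaca at -0.68 ± 0.35 (0.136) did not pass, and Me1 had a positive difference, 0.48 ± 0.23 (0.117). This comparison uses the same old controls as that of age, so the values of each gene in both are not independent.

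Of the 4 genes that fell, Acly, Fasn and Elovl6 had a called slope on the adipocyte score and Scd2 had none. None of the 6 adipocyte markers of the score was called, with differences from -1.54 ± 0.81 for Plin1 to -0.27 ± 0.82 for Cidec. Of the 8 wider adipocyte markers, Cebpa (-1.51 ± 0.43) and Adrb3 (-3.32 ± 1.21) were called lower and Plin4 (1.43 ± 0.42) higher. With the adipocyte score as a covariate, Acly (-0.91 ± 0.25, adjusted p = 0.0189), Elovl6 (-2.47 ± 0.68, 0.0208) and Scd2 (-0.91 ± 0.25, 0.0223) remained called and Fasn did not (-1.30 ± 0.54, 0.0865). With the keratinocyte score, Elovl6 differed by -1.54 ± 0.45 (0.0421), and Scd2 and Elovl6 remained called.

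Markers and scores of other cells moved with these falls. The Schwann score lay between -0.44 and -0.15 in old MICT and between -0.02 and 0.48 in old controls, and of its 6 measured markers only Egr2 was called lower (-1.72 ± 0.44). With that score as a covariate none of the 10 genes was called, Scd2 at -0.68 ± 0.23 (0.0676) and Acly at -0.88 ± 0.32 (0.0842). The lymphocyte score lay between -1.28 and -0.46 in old MICT and between -0.01 and 4.43 in old controls. Of its 7 markers 5 were called lower, among them Ms4a1 (-5.42 ± 1.02) and Cd79b (-4.29 ± 0.75). Of 3 measured macrophage markers, Adgre1 (-1.26 ± 0.43) and Csf1r (-0.97 ± 0.23) were called lower. The remaining marker had a positive difference that was not called. Among 4 fibroblast markers, Col1a1 (-2.66 ± 0.57) and Lum (-0.99 ± 0.28) were called lower and Dcn (0.44 ± 0.13) higher, and of 8 fast fibre markers Ckm (0.78 ± 0.22), Atp2a1 (0.89 ± 0.24) and Actn3 (0.66 ± 0.20) were called higher. The part of the lymphocyte, macrophage, fibroblast and fast fibre markers in the result was not tested. Without old controls 1 and 2 none was called, with Elovl6 at -2.19 ± 0.99 (0.182), Fasn at -0.98 ± 0.83 (0.474), Acly at -0.61 ± 0.27 (0.178) and Scd2 at -0.98 ± 0.29 (0.0720). With each array left out in turn, the Fasn call was lost in 11 of 23 cases (adjusted p from 0.0159 to 0.178), and its difference ran from -2.94 without old control 4 to -1.36 without old control 1. Elovl6 ran from -3.98 without old control 4 to -2.50 without old control 2, where its call was lost (0.0532), and Acly was at -0.80 without old control 1. The Acly and Scd2 calls were kept in all 23. The count was 2 (Acly and Scd2) without old control 2 and 7 without old control 4, which added Acaca, Scd1 and Thrsp. Old controls and old MICT lay on different slides, and in a model of age, training and slide, which assumes that training acts alike at both ages, none was called: Acly differed by 0.06 ± 0.46 and Fasn by 0.17 ± 1.13, while Elovl6 was at -1.71 ± 1.30 and Scd2 at -0.68 ± 0.36. Slide and group cannot be told apart for this comparison.

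HIIT in old mice left no gene of the 10 called, where 0.434% of all features were called, 0.426% higher and 0.00843% lower. Old HIIT and old control arrays lay on different slides, so slide and group cannot be told apart for this comparison. Of the 10, Acly alone had an unadjusted p under 0.05 (3685 of 23715 features did), with -0.89 ± 0.32 (limma adjusted p = 0.215). Fasn differed by -1.43 ± 0.80 (0.387) and Elovl6 by -0.44 ± 0.92 (0.842), and 8 of the 10 differences were negative. Old HIIT arrays fell into unlike levels: replicates 3 and 4 were at -0.32 and -0.50 for Fasn and replicate 1 at -3.50, and the adipocyte scores of these arrays were 1.30, 0.79 and -1.60. Replicate 2 was at -2.25 for Fasn with an adipocyte score of 1.07, above that of replicate 4. Between HIIT and MICT in old mice, which share a slide, no feature was called (0%, smallest adjusted p = 0.0549, 4043 features with an unadjusted p under 0.05). Elovl6 was higher in HIIT by 2.97 ± 0.92 (0.210) and Scd2 by 0.70 ± 0.26 (0.211), the 2 of the 10 genes with an unadjusted p under 0.05.

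In adult mice no feature was called for either regimen (0%, with 1216 features at an unadjusted p under 0.05 for HIIT and 500 for MICT). Adult HIIT and adult control arrays share a slide. Adult MICT arrays lay on another slide, so slide and group cannot be told apart where adult MICT is compared. HIIT gave positive differences for 8 of the 10 genes, the largest for Scd1 at 1.65 ± 0.74 (limma adjusted p = 0.914), and Scd1 and Dgat2 (0.81 ± 0.39) had an unadjusted p under 0.05. For Scd1, 3 of 4 adult HIIT arrays were above all adult controls, and the same 3 arrays had an adipocyte score above those of all adult controls. MICT gave 0 of the 10 genes at an unadjusted p under 0.05, with Scd1 at 1.20 ± 0.79 and Scd2 at -0.27 ± 0.28. Between HIIT and MICT in adults no feature was called (0%, 1821 at an unadjusted p under 0.05), with Elovl6 at 1.76 ± 0.99.

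Whether the response to training differed between ages was tested as the old minus the adult response. Old HIIT and old controls lay on different slides, as did MICT and control arrays at each age. Adult HIIT and adult controls shared a slide. Slide and the difference in response therefore cannot be told apart here. For HIIT no feature was called (0%, 2697 at an unadjusted p under 0.05), and the old minus adult response was -2.41 ± 1.04 for Scd1, -2.36 ± 1.13 for Fasn, -1.52 ± 0.69 for Thrsp and -1.30 ± 0.46 for Acly. These 4 genes had an unadjusted p under 0.05 and limma adjusted p-values from 0.381 to 0.439. For MICT 0.666% of all features were called, 0.582% higher and 0.0843% lower, and none of the 10 genes was. Elovl6 had a difference in response of -2.92 ± 1.35 (limma adjusted p = 0.183), Scd1 of -2.70 ± 1.08 (0.140) and Acly of -1.11 ± 0.48 (0.161). These were the 3 genes with an unadjusted p under 0.05, where 6109 of 23715 features had one. The fall of Fasn, Acly, Scd2 and Elovl6 after MICT in old mice is therefore not shown to be larger than the change in adult mice.

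The other genes of the pathway were read from lists that hold none of the 10. In old mice after MICT, the 9 genes of fatty acid precursors and reducing power split, with 3 called lower and 3 higher, and a median of -0.05, where 9.03% of all features were called lower and 21.2% higher. Slc25a1, the citrate carrier, fell by 1.64 ± 0.46, and G6pdx, which makes NADPH, by 0.88 ± 0.24. Acacb, the acetyl-CoA carboxylase of muscle whose malonyl-CoA restrains fatty acid burning, was higher by 0.96 ± 0.20 (limma adjusted p = 0.00430), opposite in sign to Acaca, and the mitochondrial Mcat was higher by 0.69 ± 0.14. Of 12 elongation and desaturation genes 3 fell, Hsd17b12 by 1.34 ± 0.31, Elovl1 by 1.02 ± 0.31 and Elovl5 by 0.75 ± 0.28, and Tecr rose, with a median of -0.70. Of 13 glycerolipid genes, Lpin1 rose by 1.14 ± 0.28 and Agpat2 fell by 1.11 ± 0.42. Of 10 regulators, Srebf2, the factor for cholesterol genes and sister of Srebf1, fell by 0.95 ± 0.23, and Nr1h2 rose by 0.31 ± 0.10.

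Cholesterol synthesis and uptake genes stood beside the falling lipid synthesis genes. After MICT in old mice 6 of 11 fell, among them Sqle by 2.37 ± 0.55 and Hmgcs1 by 0.52 ± 0.15, and Fdft1 rose by 1.03 ± 0.28. Their median was -0.65, against 0.19 for all features, of which 9.03% were called lower. Of 7 genes of triglyceride breakdown and lipid droplets, Plin5 rose by 2.12 ± 0.56 and Pnpla2, the lipase that opens triglyceride breakdown, by 1.27 ± 0.30, and Plin2 fell by 0.82 ± 0.30. Between old and adult controls, Pgd (0.65 ± 0.15), G6pdx (0.91 ± 0.24), Hsd17b12 (1.04 ± 0.31), Pnpla3 (1.81 ± 0.56), Agpat2 (1.27 ± 0.42) and Plin2 (1.22 ± 0.30) were higher, and Gpam (-0.62 ± 0.19) and Nr1h2 (-0.33 ± 0.10) lower. No cholesterol gene was called for age by limma, where 7 of 11, and 7851 of 23715 features, had an unadjusted p under 0.05. HIIT in old mice left no gene of these 6 lists called. An unadjusted p under 0.05 was found for 5 of the 11 cholesterol genes, among them Fdft1 (0.86 ± 0.28), and for 3685 of 23715 features.

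The slope on the adipocyte score was called for some genes of these lists, where 1.77% of all features were called. Slc25a1 (0.42 ± 0.09), Hacd2 (0.52 ± 0.08), Elovl7 (0.97 ± 0.23), Hsd17b12 (0.26 ± 0.06), Pnpla3 (0.63 ± 0.08) and Mogat1 (0.50 ± 0.07) had called positive slopes, 1 of 9 precursor genes, 3 of 12 elongation genes and 2 of 13 glycerolipid genes. None of the 10 regulators and none of the 11 cholesterol genes was called by limma. Of these, 1 and 4 had an unadjusted p under 0.05, as did 3961 of 23715 features. In the main models Slc25a1 and Hsd17b12, like Fasn, Acly and Elovl6, had a called adipocyte slope and a called fall after MICT in old mice. For Fasn, Acly and Elovl6, both calls were lost in some of the other models given above.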

How the data were processed

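The deposited intensity values were made by Feature Extraction 12.0.3.1 (protocol GE1_1200_Jun14, mm9 annotation), per the file headers, which state background subtraction within each array and no scaling between arrays. The deposited value table holds a score per spot of unstated scale, centring and direction (column medians -0.3 to -0.1), which followed the log10 signal with r of at least 0.9995, and served as an alternative. Control and outlier spots were left out, spots of a probe averaged, and log2 signals set relative to each array's 75th percentile. Probes well above background on at least 3 arrays were kept. Accessions were matched to RefSeq symbols of GRCm38.p6 (28123 of 29574 RefSeq probes). The brightest probe stood for a gene, giving 23715 features. Each array had 47.2% to 58.9% of gene spots above background, and the number of arrays limits precision.

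limma 3.58.1 in R 4.3.3 fitted 6 group means to 23 arrays with an intensity trend. Tests were 2-sided, with Benjamini-Hochberg adjustment over all features and calls at an adjusted p under 0.05. A slope adds an array's score to the group means. The labels do not say that arrays are separate mice, so p-values measure the spread between these samples. The fits were tested on simulated data. The 10 genes, the marker and pathway lists and the tests were chosen with earlier results of these data known. Named beyond the 10 are, per list and comparison, at most 4 called genes with the smallest p (or 2 where none was called), and each gene's 3 nearest profiles; 2 genes taken by this rule are not reported here. Genes outside this rule were chosen after their values were seen: Cidec beside the MICT result, and Pdk4 and Ddit4.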

Additional observations from a re-analysis of the deposited data

How the results depend on the processing

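Of 1900 values of single genes under alternatives to the main processing, 1722 kept their direction and their side of the threshold, 61 lost a call, 13 gained one, 102 without a call changed sign, and 2 reversed, Acly (0.0584) and Fasn (0.175) for MICT in old mice under the additive model with slide. Keratinocyte and lymphocyte scores as covariates, and leaving out old controls 1 and 2 together, were chosen after seeing the data. For age, with 2 genes called, the count was 1 with no filter on dim probes, no intensity trend, robust variance, the replicate block or the mean of all probes, 5 with array weights, and 0 with slide, with only the groups compared, with the adipocyte, Schwann or keratinocyte score or the adipocyte and keratinocyte scores as covariates, and without old controls 1 and 2. For MICT in old mice, with 4 called, it was 0 with slide, with only the groups compared, with the Schwann score and without old controls 1 and 2, and 2 with the keratinocyte score. For HIIT against MICT in adults it was 2 with array weights (Dgat2 1.10 higher, Me1 -0.79). For the adipocyte slope, with 5 called, it was 3 with array weights or the mean of all probes, and 1 with the Schwann or lymphocyte score as second covariate. For the keratinocyte slope, with 1 called, it was 5 without old controls 1 and 2. The cause was not tested.

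With each array left out in turn, the counts ran from 2 to 7 for MICT in old mice, 0 to 5 for age, 2 to 6 for the adipocyte slope and 1 to 6 for the keratinocyte slope, and stayed at 0 for the other comparisons. Replicate numbers did not pair the arrays: same-numbered arrays had a mean r of 0.03 between their deviations (-0.44 to 0.40), and 7 of 23 arrays were closest to one of their own number. With the replicate block, 3 genes were called for MICT in old mice, where Fasn had an adjusted p of 0.0554, 1 for age, and 4 for the adipocyte slope (Fasn, Acly, Scd1 and Thrsp). Few arrays per group, and 1 slide for each group, limit what can be told.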

Other observations

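The 3 lowest Srebf1 levels, and the 2 lowest of Scd2, lay on arrays with high levels of a pair of genes that are known to respond to fasting and stress hormones, chosen after their values were seen. Pdk4, the kinase that turns muscle from glucose to fatty acids, was at 9.11 and 8.80 in old MICT 1 and 2 and at 8.68 in old HIIT 1, its 3 highest arrays, and these were the 3 lowest arrays of Srebf1. The next highest Pdk4 level was 7.39 in old HIIT 2, where Srebf1 was at -1.12, above its median of -1.29. Ddit4, an inhibitor of growth signalling, was at 8.54 and 8.57 in old MICT 1 and 2, and at 3.73 and 4.93 in old MICT 3 and 4. Over the 23 arrays, as a description, r with Pdk4 was -0.81 for Scd2, -0.67 for Fasn, -0.54 for Srebf1 and 0.17 for Me1. The r with Ddit4 was -0.77 for Srebf1 and -0.09 for Scd1. Pdk4 was lowest in old control 1, at 2.85, the array with the highest Scd2, Fasn and Srebf1 levels. Within old MICT, Srebf1 thus spanned -3.17 to -1.08, wider than the -1.57 to -0.68 of all 11 adult arrays.

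The probe chosen for a gene mattered for Acly and Acaca. A second Acly probe was above background on 3 arrays and followed the one used with r = 0.64, and a second Acaca probe, above background on 15, with r = 0.65. With the mean of all tested probes of a gene, Acly was not called for age (0.90 ± 0.43, limma adjusted p = 0.141), for MICT in old mice (-1.10 ± 0.43, 0.0544) or for the adipocyte slope (0.33 ± 0.10, 0.0832), and Acaca had an adipocyte slope of 0.25 ± 0.11 (0.260).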
